A study of Mus musculus with 4 samples.

Results

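The genes that encode collagen chains, laminin chains and integrin chains were followed in the mouse prostate. They were found by name on the array: 82 gene names, measured by 170 probes, of 27974 gene names and 41174 probes in all. Of the 82, 39 were collagen chains, 11 laminin chains and 26 integrin chains, and 6 had a matching name but are no chain of these families (Col4a3bp, Itgb1bp1, Itgb1bp2, Itgb1bp3, Itgb3bp and Itgbl1). The 4 groups were TRAMP mice given TmT, TRAMP mice given olive oil, C57BL/6 mice given TmT and C57BL/6 mice given olive oil. TRAMP mice carry the SV40 early genes under a probasin promoter active in the epithelial cells of the gland, and they develop prostate tumours. TmT is a mixture of tocopherols (vitamin E) rich in the gamma form, given once by gavage at 600 mg/kg after a night without food. All mice were male and 8 weeks old, all ate the same purified diet in the week before, and whole prostates were taken 12 hours after the gavage. Each group had 3 mice and 1 array, and whether an array held 1 mouse or a pool is not stated. The background strain of the TRAMP mice is not given either, so a genotype difference is one between the lines.

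Collagens are trimers of chains with a repeated glycine triplet. Fibrillar types (I, III, V) form the load-bearing fibres of the stroma, whereas type IV builds the sheet of the basement membrane under epithelium, vessels and muscle. Laminins are trimers of an alpha, a beta and a gamma chain in the same sheet. Integrins are pairs of an alpha and a beta chain on the cell surface that bind these proteins and link them to the cytoskeleton. In the prostate, stromal fibroblasts and smooth muscle make most of the fibrillar collagen, and basal epithelial cells anchor the gland to its basement membrane.

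The defining feature of the collagen genes is visible in some of the probes themselves, which are 60 bases long. A glycine codon as the first of every 3 codons, with no stop, ran through 3 of 78 collagen probes, 0 of 60 integrin probes, 0 of 20 laminin probes and 0 of 41004 probes of other genes. The 3 are shown in the direction of the transcript, from the array files, with the glycine codons in capitals. On build mm9 the array files place the Col5a1 probe at chr2:27842243-27844666 on the plus strand, the Col11a2 probe at chr17:34189287-34189453 on the plus strand and the Col5a3 probe at chr9:20590066-20590795 on the minus strand. Each spans more genome than its 60 bases, so it crosses at least 1 intron.
Col5a1: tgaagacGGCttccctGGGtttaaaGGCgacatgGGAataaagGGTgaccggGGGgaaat
Col11a2: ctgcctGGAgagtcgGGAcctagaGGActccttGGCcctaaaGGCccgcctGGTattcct
Col5a3: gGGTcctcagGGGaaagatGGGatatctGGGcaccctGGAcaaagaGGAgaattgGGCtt
The Col5a1 triplet probe differed by 0.69 between TRAMP TmT and TRAMP oil, and by -0.86 between TRAMP oil and C57BL/6 oil (log2). The gene's brighter probe, which represents it below, gave 1.51 and -0.53. Between TRAMP TmT and C57BL/6 TmT the probes went opposite ways, at -0.46 for the triplet probe and 0.84 for the brighter one. The Col5a3 triplet probe was not well above background on any array.

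Type IV chains lie in head-to-head gene pairs, and the pair members are set side by side below because these chains gave the lowest and the highest difference between the lines after oil. The RefSeq start sites of Col4a1 and Col4a2 lay 21 bases apart on chromosome 8, on opposite strands, so that 78 bases belong to both promoter windows. Those of Col4a5 and Col4a6 lay 1343 bases apart on chromosome X, also on opposite strands. The windows run from 250 bases before the start site to 50 after it, as listed by RefSeq on GRCm38.p6, 5′ to 3′ on the strand of the gene. They are chr8:11312555-11312854 (plus) for Col4a2, chrX:141475169-141475468 (plus) for Col4a5 and chrX:141474027-141474326 (minus) for Col4a6. Capitals mark matches, on either strand, to the GC box letters GGGCGG and the CCAAT box letters CCAAT. The GC box occurs in 35.7% and the CCAAT box in 37.4% of all 32851 mouse promoters in that table.
Col4a2: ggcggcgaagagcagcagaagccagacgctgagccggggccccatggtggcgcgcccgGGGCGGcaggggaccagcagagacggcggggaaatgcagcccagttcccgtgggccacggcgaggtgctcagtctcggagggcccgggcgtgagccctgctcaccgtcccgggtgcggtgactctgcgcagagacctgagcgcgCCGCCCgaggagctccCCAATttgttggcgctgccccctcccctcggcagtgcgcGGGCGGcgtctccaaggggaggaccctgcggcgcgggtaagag
Col4a5: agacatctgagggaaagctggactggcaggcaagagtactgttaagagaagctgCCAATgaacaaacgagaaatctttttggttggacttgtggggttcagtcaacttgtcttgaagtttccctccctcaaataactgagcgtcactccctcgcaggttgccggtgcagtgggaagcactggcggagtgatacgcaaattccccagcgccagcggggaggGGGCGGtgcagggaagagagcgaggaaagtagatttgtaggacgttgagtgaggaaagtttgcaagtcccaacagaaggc
Col4a6: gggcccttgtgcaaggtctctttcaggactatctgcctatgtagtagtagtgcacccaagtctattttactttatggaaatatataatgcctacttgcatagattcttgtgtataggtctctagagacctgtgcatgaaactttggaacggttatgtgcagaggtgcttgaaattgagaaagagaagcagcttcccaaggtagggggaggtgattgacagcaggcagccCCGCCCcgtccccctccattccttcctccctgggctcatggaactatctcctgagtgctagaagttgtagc
The Col4a2 window held 3 GC boxes and 1 CCAAT box, the Col4a5 window 1 of each, and the Col4a6 window 1 GC box and 0 CCAAT boxes. None of the 3 windows held the TATA box letters TATAAA or the AP-1 letters TGANTCA, which occur in 13.6% and 7.81% of promoters. A match of letters is not evidence that a factor binds there.

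Levels are log2 of the array intensity minus log2 of that array's 75th percentile, so they compare 1 gene between arrays and not 1 gene with another. The value after ± is the scanner software's error for the spots, which does not cover differences between mice. With 1 array per group, no difference between a pair of arrays had a replicate check or a test, and a 2-fold difference (1 on the log2 scale) with both arrays well above background is used only as a size. Of the 82 genes, 69 were well above background on all 4 arrays, 6 on 3, 3 on 2 and 1 on 1 array. Col19a1, Itga10 and Lama1 were not well above background on any. A gene was represented by its brightest probe, and 54 of the 82 had more than 1. The arrays differed in depth of signal: the 75th percentile of intensity was 71.3 for TRAMP TmT, 139 for TRAMP oil, 118 for C57BL/6 TmT and 161 for C57BL/6 oil, and 63.9% to 74.1% of spots were well above background. The scanner software's correction for trends across the array spanned a factor of 0.81 to 1.86 (5th to 95th percentile of spots) on the TRAMP oil array, the widest of the 4, and was not applied on the TRAMP TmT array. All 9 luminal prostate markers on the array (Pbsn, Tgm4 and others) were well above background in every group.

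In TRAMP prostates after oil, most matrix and receptor genes read lower than in C57BL/6 prostates after oil, and the widest differences were in basement membrane and network chains. Of 73 members measured on both arrays, 54 were below 0 (54.5% of all genes were), 7 reached a 2-fold decrease and 1 (Col4a4) a 2-fold increase. Over all 18921 genes measured the same way, 7.84% reached the decrease and 7.74% the increase, so the members' share of lower genes (9.59%) lay near the background and their share of higher genes was 1.37%. With a normexp background correction, fitted without spots of outlying background and with an offset of 50 that shrinks differences of dim genes (chosen after seeing the data), Col4a6 alone reached the decrease, against 3.60% of genes. The median member differed by -0.36, against -0.07 over all genes. By family the medians were -0.50 for 34 collagen chains, -0.39 for 10 laminin chains and -0.22 for 23 integrin chains.

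**Figure D1:**
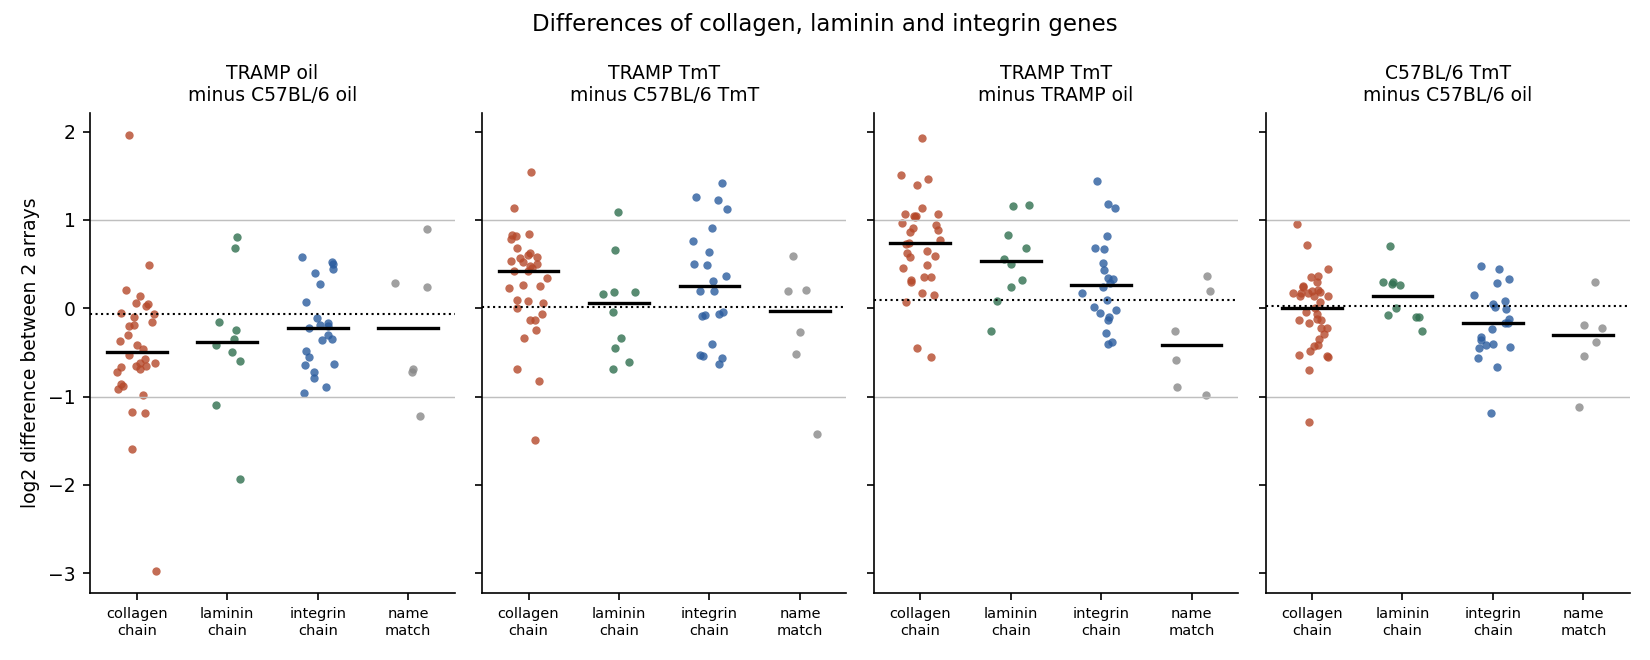
Each point is 1 gene measured on both arrays of a comparison. The vertical axis is its log2 difference, the black bar the median of a family, the dotted line the median of all genes and the grey lines a 2-fold difference. Collagen chains have a median of -0.50 between TRAMP oil and C57BL/6 oil and 0.74 between TRAMP TmT and TRAMP oil.

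Col4a6, a type IV chain that pairs with Col4a5 in the basement membrane of some epithelia and of smooth muscle, had the lowest difference of any member. Its level was 1.61 on the TRAMP TmT array, -0.32 on the TRAMP oil array, 3.10 on the C57BL/6 TmT array and 2.66 on the C57BL/6 oil array. Both TRAMP arrays lay below both C57BL/6 arrays, and TRAMP oil was the lowest. TRAMP oil minus C57BL/6 oil was -2.98 ± 0.20, and only 38 of 18921 genes were as low or lower. TRAMP TmT minus C57BL/6 TmT was -1.50 ± 0.20. The probe lies at chrX:137599990-137600049 (mm9); the exon or untranslated region under it was not looked up here. The gene's 2 other probes also read lower in TRAMP, at -4.14 and -1.19 after oil and at -1.60 and -0.54 after TmT, the first of them not well above background on the TRAMP oil array.

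The other type IV chains did not share that size. Col4a5, the partner chain, stood at -0.37, -1.26, -0.24 and -0.54 on the TRAMP TmT, TRAMP oil, C57BL/6 TmT and C57BL/6 oil arrays. It was lowest on TRAMP oil, with TRAMP minus C57BL/6 differences of -0.72 ± 0.21 after oil and -0.13 ± 0.21 after TmT. Col4a1 and Col4a2, the chains of nearly every basement membrane, differed by -0.30 ± 0.20 and -0.46 ± 0.21 after oil and by 0.79 ± 0.20 and -0.25 ± 0.21 after TmT. Col4a1 was highest on TRAMP TmT (2.87, against 1.90, 2.08 and 2.20 on the TRAMP oil, C57BL/6 TmT and C57BL/6 oil arrays), but its second probe differed by -0.19 after oil and -0.017 after TmT. Col4a2 was highest on C57BL/6 TmT (-0.29, with -0.54 on TRAMP TmT). A second Col4a2 probe was not well above background on the TRAMP oil array alone.

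Col4a4, a chain of the specialised basement membrane of kidney, lung and other sites, went the other way. It read 0.87 on TRAMP TmT, 1.43 on TRAMP oil, 0.42 on C57BL/6 TmT and -0.54 on C57BL/6 oil, so both TRAMP arrays lay above both C57BL/6 arrays. The difference after oil was 1.96 ± 0.17 and after TmT 0.45 ± 0.20. Its second probe gave 0.14 after oil, so the size rests on 1 probe. Col4a3, its trimer partner, differed by -0.58 ± 0.25 after oil and 0.27 ± 0.28 after TmT.

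Lamb3, the beta chain of the laminin that anchors basal epithelium, was the lowest laminin. It read -1.65 on TRAMP TmT, -2.80 on TRAMP oil, -0.96 on C57BL/6 TmT and -0.86 on C57BL/6 oil. Both TRAMP arrays were lower, and the TRAMP minus C57BL/6 difference was -1.94 ± 0.24 after oil and -0.69 ± 0.22 after TmT. Lama3, an alpha chain it assembles with, differed by -0.50 ± 0.21 after oil and -0.45 ± 0.21 after TmT. Its receptor chains Itga6 and Itgb4, the hemidesmosome integrin, differed by -0.79 ± 0.20 and -0.16 ± 0.20 after oil and by -0.63 ± 0.21 and 0.50 ± 0.20 after TmT. The Itga6 values rest on its brightest probe, since a second one, detected on all 4 arrays, gave 0.091 and 0.16. Lama2, the alpha chain of muscle and nerve basement membranes, was at -1.28, -1.78, -0.67 and -0.68 on the TRAMP TmT, TRAMP oil, C57BL/6 TmT and C57BL/6 oil arrays, a difference of -1.10 ± 0.07 after oil. Lama4, found around vessels and fat cells, differed by -0.15 ± 0.20 after oil, and Lama5, the alpha chain of mature epithelial basement membranes, by 0.81 ± 0.21.

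The 2 short network chains, Col8a1 and Col8a2, which are known from vessel walls and the cornea, were both lower after oil, at -1.18 ± 0.21 and -1.59 ± 0.22. Col8a2 read -0.53 on TRAMP TmT, -1.99 on TRAMP oil, -0.19 on C57BL/6 TmT and -0.39 on C57BL/6 oil, so the TRAMP oil array stood apart from the other 3. Col8a1 read -0.54, -0.86, 0.28 and 0.32 in the same order, with both TRAMP arrays lower. Its second probe was lower in TRAMP after oil (-1.73) but higher after TmT (1.42, against -0.82 for the first probe). Col23a1, a transmembrane collagen, differed by -1.18 ± 0.21 after oil (-0.59 averaged over probes) and -0.07 ± 0.21 after TmT. Col13a1, another transmembrane collagen of cell adhesion sites, was not well above background on TRAMP oil and was at least 4.48-fold lower there than on C57BL/6 oil.

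The fibrillar chains were lower by less than 2-fold after oil: 9 of 11 were below 0, with a median of -0.41. Col1a1 and Col1a2, the chains of type I collagen, differed by -0.65 ± 0.06 and -0.86 ± 0.20, and Col3a1 by -0.62 ± 0.20. The microfibril chains Col6a1, Col6a2 and Col6a3 differed by 0.13 ± 0.21, 0.07 ± 0.20 and 0.05 ± 0.21. By its brightest probe, no integrin chain measured on both oil arrays reached 2-fold in either direction. Dimmer probes detected on all 4 arrays did read more than 2-fold lower, at -1.36 for Itgb3 and -1.22 for Itga8. Itga11, undetected on TRAMP oil, was at least 2.63-fold lower there. By brightest probe, the lowest integrin chain measured on both was Itga8 (-0.96 ± 0.21), a receptor chain for nephronectin and other RGD proteins on smooth muscle and mesenchymal cells. The highest was Itga4 (0.58 ± 0.21), a chain for VCAM1 and fibronectin. A second Itga4 probe, detected on both oil arrays, gave -0.19, so its sign rests on 1 probe.

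Markers of several, but not all, of the cell types that make these chains read low on the same array. Summed scaled intensity of 11 fibroblast markers was 30.3 on TRAMP oil and 78.8 on C57BL/6 oil (61.8 on TRAMP TmT and 68.5 on C57BL/6 TmT), and 10 measured on both oil arrays had a median difference of -0.66. Such a sum adds linear intensities, so its brightest markers weigh most. The brightest here, Dcn, read 3.16 on TRAMP oil and 5.52 on C57BL/6 oil (log2). Pi16 (0.28) and Mfap5 (0.13) were the only fibroblast markers measured on both that were higher on TRAMP oil. The 10 endothelial markers summed to 7.23 on TRAMP oil and 13.7 on C57BL/6 oil (12.4 on TRAMP TmT and 11.8 on C57BL/6 TmT), with a median of -0.90. The 6 basal epithelial markers summed to 11.5 on TRAMP oil and 27.7 on C57BL/6 oil (21.2 on TRAMP TmT and 22.4 on C57BL/6 TmT); the 5 measured on both oil arrays had a median of -0.86, from -1.89 for Krt5, the keratin of basal cells, to 0.60 for the basal regulator Trp63, and Dsg3 was detected on TRAMP oil only. The 10 smooth muscle markers summed to 267 on TRAMP oil and 298 on C57BL/6 oil (335 on TRAMP TmT and 310 on C57BL/6 TmT), with a median of -0.18 and a range that ran from -1.20 for Synpo2 to 0.61 for Actg2. Adipocyte markers ran the other way: 9 summed to 258 on TRAMP oil and 47.8 on C57BL/6 oil (34.6 on TRAMP TmT and 28.6 on C57BL/6 TmT), and 8 of 8 measured were at least 2-fold higher. Lep, the fat hormone leptin, was not well above background on any array. Other lists read low on TRAMP oil as well. The 8 skeletal muscle markers summed to 214 there and 399 on C57BL/6 oil, with the lowest median of the cell type lists (-1.02). The 9 luminal markers summed to 487 and 1090 (median -0.76), and the 8 Schwann cell markers to 12.7 and 16.3 (median -0.65). Leukocyte markers had a median of -0.28 and seminal vesicle markers 0.08. The 39 collagen chains summed to 79.2 on TRAMP oil and 127 on C57BL/6 oil (133 on TRAMP TmT and 109 on C57BL/6 TmT). That sum is weighted to Col1a2 and Col3a1, the brightest collagen chains. In whole tissue, fewer cells of a type and less RNA per cell cannot be told apart, and the part of these markers in the members' differences was not tested.

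After TmT the lines differed in another way: 47 of 72 members measured on both arrays read higher in TRAMP and 25 lower, while 49.4% of all genes read lower. Of these 72, 7 were 2-fold or more higher and 2 were 2-fold or more lower, which is 9.72% and 2.78%. Over 17251 genes the shares were 8.45% higher and 6.09% lower, so the members' higher share lay near the background. With the normexp correction 0 members reached 2-fold higher, against 1.27% of genes. The median was 0.22, against 0.01 over all genes, and by family 0.42 for 34 collagen chains, 0.06 for 10 laminin chains and 0.25 for 22 integrin chains.

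The 7 higher genes were Col5a2, Itga7, Itgb8, Itgb6, Col6a2, Itga3 and Lamc1. Col5a2, a fibrillar chain that sets fibril diameter, read -1.15 on TRAMP TmT, -1.61 on TRAMP oil, -2.70 on C57BL/6 TmT and -1.41 on C57BL/6 oil. The C57BL/6 TmT array stood below the other 3, and the difference of 1.55 ± 0.24 rests on it. Itga7, the laminin receptor chain of muscle, had the same shape, at -0.78, -1.12, -2.20 and -1.01, a difference of 1.41 ± 0.22. Averaged over probes it was 0.63, and its second probe was not well above background on either TmT array. In Lamc1, the gamma chain of most laminins, it was the TRAMP TmT array that stood above the others: 3.21, against 2.03 on TRAMP oil, 2.12 on C57BL/6 TmT and 2.39 on C57BL/6 oil, a TRAMP minus C57BL/6 difference of 1.09 ± 0.20 after TmT. Col6a2 differed by 1.13 ± 0.20, its neighbour and partner Col6a1 by 0.42 ± 0.21 and Col6a3 by 0.60 ± 0.22. Itga3, an epithelial laminin receptor chain, differed by 1.12 ± 0.20, with 0.54 and 0.27 on its other probes. Itgb8 and Itgb6, the beta chains that with Itgav release active TGF-beta, differed by 1.26 ± 0.24 and 1.22 ± 0.21, and Itgav itself by 0.20 ± 0.21. In both beta chains the result belongs to the brightest of 3 probes: the other 2 gave -0.36 and -1.43 for Itgb8 and 0.31 and -0.98 for Itgb6. The mean over probes was -0.18 for Itgb8 and 0.19 for Itgb6. The probes at -1.43 and -0.98 were not well above background on TRAMP TmT, and the means include them.

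Col4a6 and Itgbl1 were the only members measured on all 4 arrays that differed by at least 2-fold in the same direction after oil and after TmT. Both were lower in TRAMP. They are 2.90% of the 69 such members, against 1.66% of 16961 genes lower both times, and 0 members were higher both times, against 2.85% of genes. Itgbl1 is no integrin chain but a secreted protein with repeats like those of the integrin beta chains. Its level was 0.33 on TRAMP TmT, 0.92 on TRAMP oil, 1.75 on C57BL/6 TmT and 2.14 on C57BL/6 oil. Both TRAMP arrays lay below both C57BL/6 arrays, with differences of -1.22 ± 0.20 after oil and -1.42 ± 0.21 after TmT. Col10a1, a short-chain collagen of growing cartilage, was detected on both TRAMP arrays (-3.36 after TmT and -4.22 after oil) and on neither C57BL/6 array. It was at least 1.53-fold higher in TRAMP after oil and at least 2.08-fold higher after TmT.

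**Figure D2:**
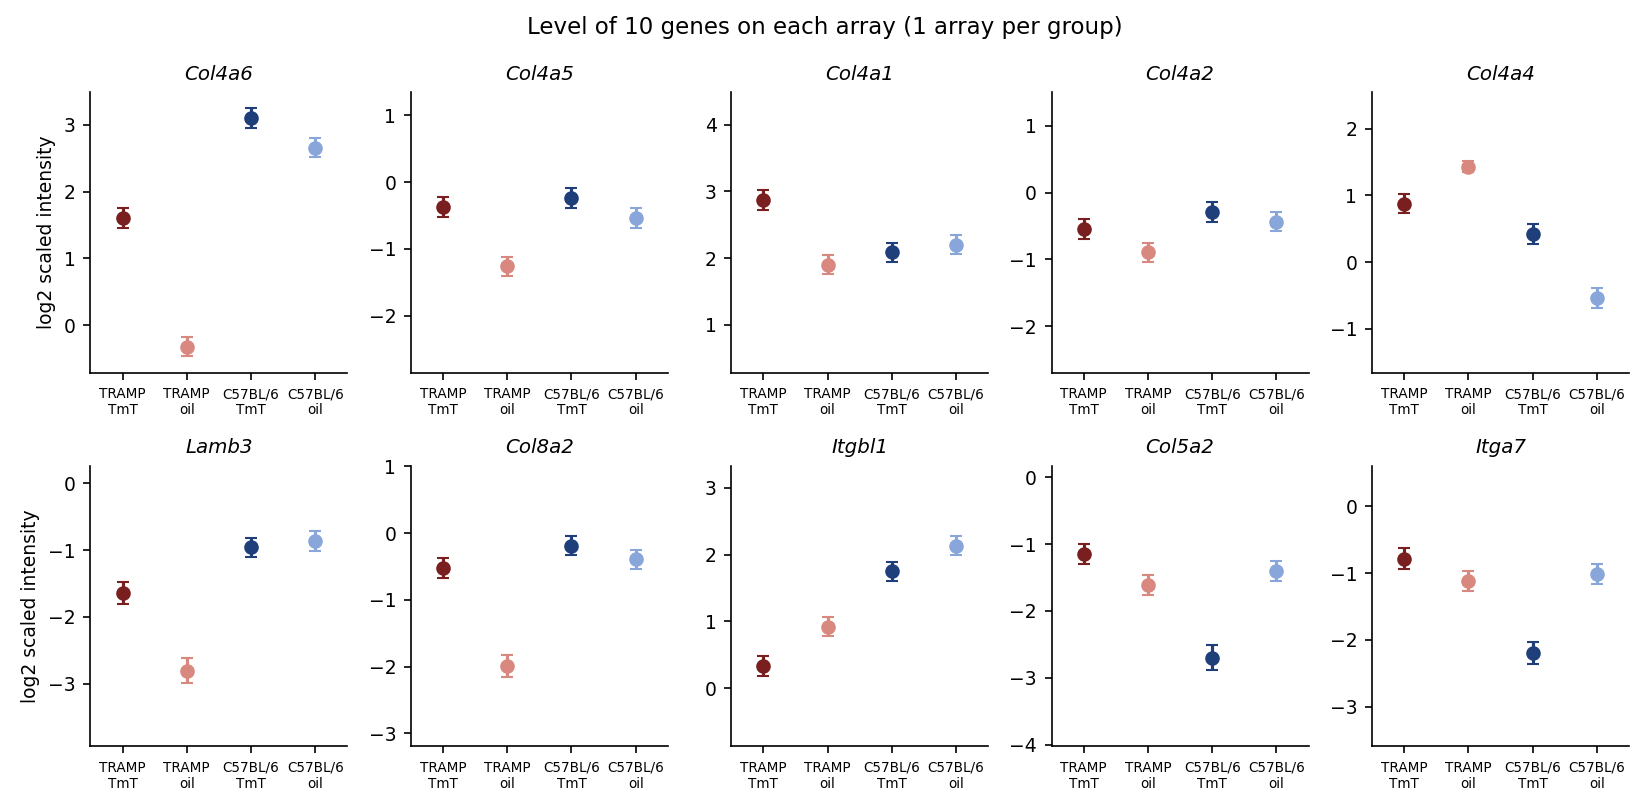
Level (log2 scaled intensity) of 10 genes on each of the 4 arrays. Points are single arrays, bars the scanner software's spot error, and every panel spans the same range of log2 units. Col4a6 and Itgbl1 are low on both TRAMP arrays, Lamb3 and Col8a2 are lowest on TRAMP oil, and Col5a2 and Itga7 are lowest on C57BL/6 TmT.

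Across the 69 genes measured on all 4 arrays, 30 (43.5%) read lower in TRAMP after oil and higher in TRAMP after TmT, against 21.2% of 16961 genes. These 2 comparisons share no array. Collagen chains made up 18 of the 30, of 32 collagen chains measured, among them Col1a1 and Col3a1, in which every probe detected on all 4 arrays showed it. Col4a3 also showed it on a second probe detected on all 4 arrays. Col4a1, Col5a1 and Col18a1 were among the 18 by their brightest probe, and their second probes were lower in TRAMP both times. In Col15a1 and Col27a1 a second detected probe was higher in TRAMP both times. In Col11a1 it was higher after oil (0.28) and lower after TmT (-0.25). For these genes the pattern rests on 1 probe. A further 21 members were lower in TRAMP both times, including Itga8, Lama2, Lama3 and Lamb3, 14 were higher both times, including Lama5, and 4 were higher after oil and lower after TmT. The TRAMP oil array held the lowest of the 4 values for 38 of the 69 members (55.1%, against 32.7% of all genes) and for 22 of 32 collagen and 8 of 10 laminin chains. The TRAMP TmT array held the highest for 33 of 69 (47.8%, against 30.1%).

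**Figure D3:**
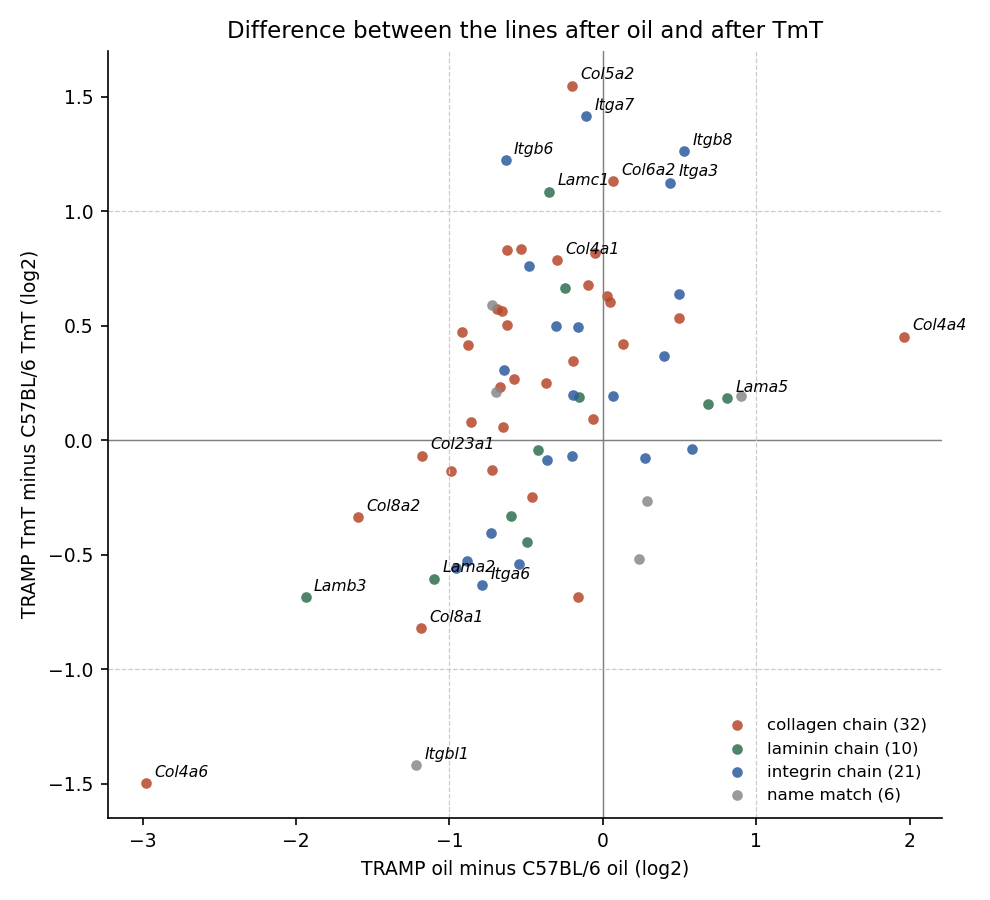
Each point is 1 of 69 genes measured on all 4 arrays, with the TRAMP minus C57BL/6 log2 difference after oil on the horizontal axis and after TmT on the vertical axis. Dashed lines mark 2-fold. The upper left field holds 30 genes, 18 of them collagen chains, and Col4a6 and Itgbl1 lie beyond 2-fold at the lower left.

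TmT in TRAMP prostates went with higher readings of most collagen and laminin chains. This comparison uses the same TRAMP oil array as the genotype comparison after oil, so the low readings there enter both, with opposite sign. Of 71 members measured on both arrays, 57 were above 0 and 14 below (44.1% of all genes were below), 15 reached 2-fold higher and 0 reached 2-fold lower. Over 17465 genes 8.66% reached 2-fold higher and 4.86% reached 2-fold lower, and the members' higher share was 21.1%. With the normexp correction 2 members, Col4a6 and Col1a1, reached 2-fold higher, against 2.87% of genes. The median was 0.49, against 0.10 over all genes. Collagen chains had a median of 0.74, with 31 of 33 above 0, laminin chains 0.53, with 9 of 10 above 0, and integrin chains 0.26, with 15 of 22 above 0.

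Among the fibrillar chains Col5a1 and Col1a1 were at least 2-fold higher. Col1a1 read 3.82 on TRAMP TmT and 2.43 on TRAMP oil, with 3.26 on C57BL/6 TmT and 3.08 on C57BL/6 oil, a TmT minus oil difference in TRAMP of 1.40 ± 0.06. A second Col1a1 probe gave 1.62 and another 0.17. Its partner Col1a2 differed by 0.65 ± 0.20, and Col3a1 by 0.59 ± 0.20. Col5a1, which nucleates type I fibrils, read 2.18 on TRAMP TmT and 0.67 on TRAMP oil, with 1.34 on C57BL/6 TmT and 1.20 on C57BL/6 oil, a difference of 1.51 ± 0.20. In both genes TRAMP TmT was the highest array and TRAMP oil the lowest.

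Of the basement membrane chains, Col4a6 differed by 1.92 ± 0.20, Lamc1 by 1.17 ± 0.20 and Lamb3 by 1.15 ± 0.25. Col4a6 and Lamb3 on TRAMP TmT nevertheless stayed below both C57BL/6 arrays. Col4a1 differed by 0.97 ± 0.20, Col4a2 by 0.36 ± 0.21, Col4a5 by 0.89 ± 0.21 and the beta chains Lamb1-1 and Lamb2 by 0.83 ± 0.21 and 0.68 ± 0.21. Col18a1, the multiplexin that releases endostatin, differed by 1.07 ± 0.21 (-0.0021 on its second probe and 0.54 averaged over probes), and Col7a1, the anchoring fibril chain, by 1.04 ± 0.20. Col17a1, the transmembrane collagen of hemidesmosomes, differed by 1.07 ± 0.21, and by 0.10 averaged over its probes, of which the second was not well above background on TRAMP TmT.

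Col8a2 differed by 1.46 ± 0.22, and the fibril-associated Col16a1, Col14a1 and Col9a2 by 1.13 ± 0.21, 1.04 ± 0.21 and 1.03 ± 0.23. Averaged over its probes, Col16a1 was at -0.093, and Col14a1 at 0.16; in both genes the second probe was not well above background on either array. Genes undetected on TRAMP oil gave bounds: Col13a1 was at least 10.5-fold higher on TRAMP TmT, Itga11, a fibroblast collagen receptor chain, at least 6.00-fold and Col28a1 at least 3.63-fold. Col11a2 was the reverse, at least 3.30-fold lower on TRAMP TmT, but its triplet probe printed above was detected on all 4 arrays and differed by 0.25.

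Among the integrins, Itgb6 differed by 1.45 ± 0.21, Itgae, the alpha chain of epithelial T cells, by 1.18 ± 0.37 and Itgb3, the beta chain of platelets and growing vessels, by 1.13 ± 0.20. A second Itgb3 probe gave 1.18. The 2 probes lay far apart in level, at 8.99 and 0.30 on TRAMP TmT and 7.86 and -0.88 on TRAMP oil, and why was not tested. Itgb3 stayed at least 2-fold higher under 4 of 8 other ways of processing. Those 4 include the deposited value table, which holds the same intensities, and the run without a background filter. Neither could change its value. Itgb3 was at 0.47 with the normexp correction, 0.81 without detrending and 0.23 in another. The other Itgb6 probes gave -0.13 and 0.28, and the mean over its probes, 0.53, was under 2-fold. The probe at 0.28 was not well above background on TRAMP TmT. The most widely shared beta chain, Itgb1, differed by -0.05 ± 0.07, and the leukocyte beta chain Itgb2 by 0.17 ± 0.20. Itga5, the fibronectin receptor chain, was not well above background on either TmT array.

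In C57BL/6 prostates the same gavage went with few differences in these genes. Of 75 members measured on both arrays, 0 reached 2-fold higher and 3 (4.00%) reached 2-fold lower, against 3.12% higher and 2.63% lower of 18665 genes. With the normexp correction 0 reached 2-fold in either direction. The median was -0.08, against 0.02 over all genes, and the collagen median was 0.00. The 3 were Col5a2 (-1.29 ± 0.23), Itga7 (-1.19 ± 0.22) and Itgb1bp3 (-1.11 ± 0.21), a muscle enzyme of NAD synthesis whose current symbol is Nmrk2. The first 2 are also the highest members between the lines after TmT, a comparison that uses the same C57BL/6 TmT array. No member differed by at least 2-fold in opposite directions in the 2 lines.

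The partners of these families moved in part with them, and their counts stand against the same shares of all genes (8.66% higher and 4.86% lower for TmT in TRAMP, 7.84% lower and 7.74% higher for the lines after oil). Of 13 measured basement membrane partners, 6 were at least 2-fold higher on TRAMP TmT than on TRAMP oil and 0 lower (median 0.86), led by Sparc at 1.86, which binds collagens, agrin (Agrn) at 1.50 and perlecan (Hspg2) at 1.35. Of 24 genes of collagen maturation, 4 were higher and 0 lower (median 0.30), among them the procollagen chaperones Fkbp10 (1.54) and Serpinh1 (1.19). After oil, 4 of 25 collagen maturation genes were at least 2-fold lower in TRAMP than in C57BL/6 and 0 higher (median -0.31), with Leprel1, a prolyl hydroxylase, at -1.47 and Sparc at -1.43. Other integrin ligands gave Vcam1, the ligand of Itga4, at 1.87 on TRAMP TmT against TRAMP oil and -1.85 on TRAMP oil against C57BL/6 oil. Of 13 measured ligands, 1 was at least 2-fold higher and 1 lower with TmT in TRAMP. Of 21 focal adhesion genes, 0 were higher and 1 lower with TmT in TRAMP (Ilk, at -1.44, median 0.39), and of 10 other matrix receptors 0 in either direction (median 0.46). The hemidesmosome list of 5 genes includes the keratins Krt5 and Krt14, and 1 gene was higher with TmT in TRAMP (Krt5, at 1.43). Krt14 (0.50), Dst (0.75), Plec1 (-0.23) and Cd151 (-0.02) were under 2-fold. Sparc is in both of the first 2 lists, and Krt5 and Krt14 are also basal markers.

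The cell type markers moved over the same pair of arrays. Between TRAMP TmT and TRAMP oil the medians were 0.53 for fibroblast, 0.73 for endothelial, 0.50 for basal, 0.57 for smooth muscle, 0.73 for Schwann cell, 0.20 for leukocyte and -2.61 for adipocyte markers, and 5 of 6 measured adipocyte markers were at least 2-fold lower. Skeletal muscle markers had a median of 0.41, luminal markers 0.31 and seminal vesicle markers 0.0067. The part of all these markers in the members' differences was not tested.

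**Figure D4:**
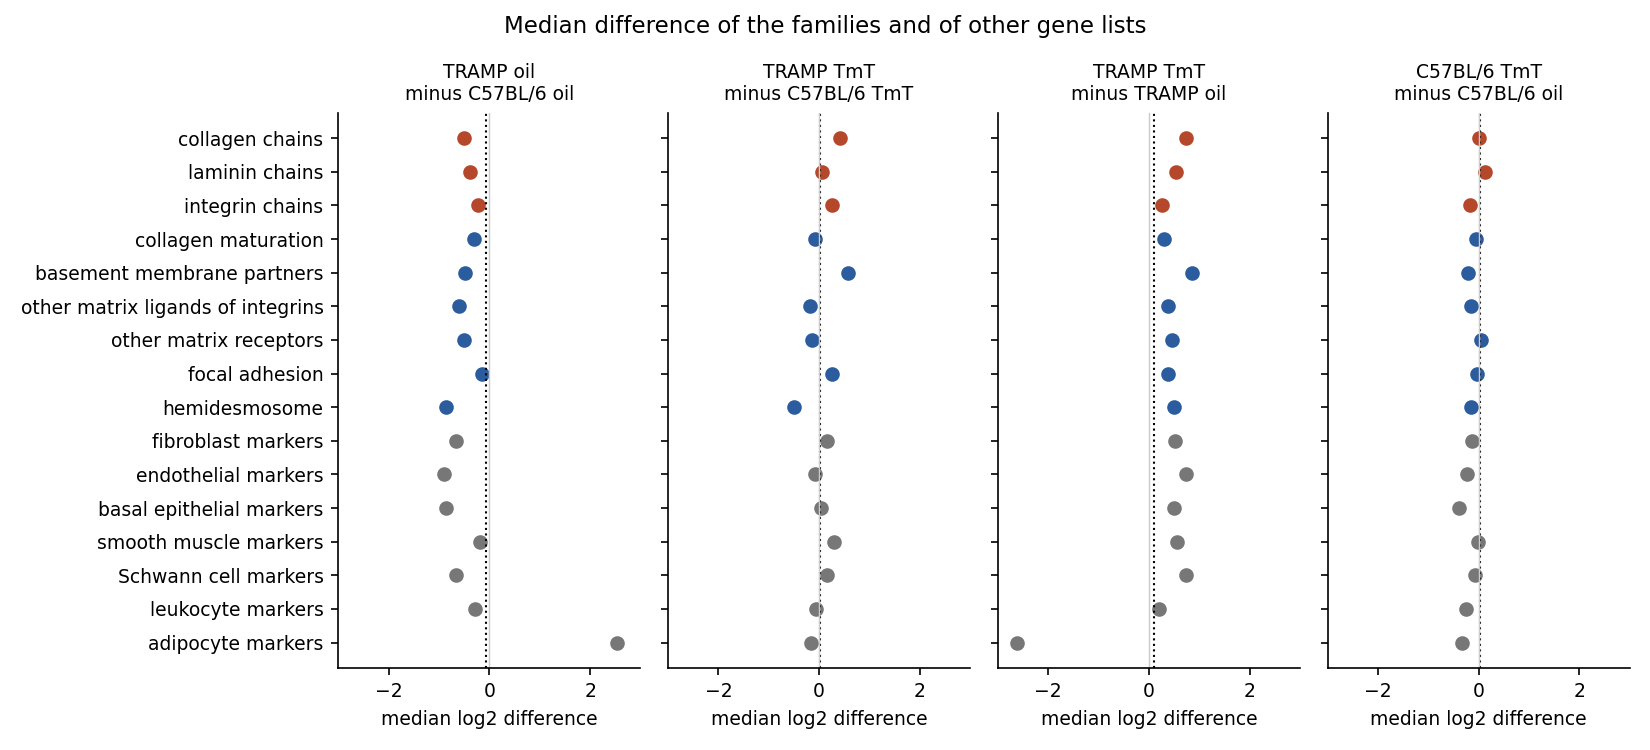
Median log2 difference of each family (red), of other matrix and adhesion lists (blue) and of cell type marker lists (grey) in the 4 comparisons, over genes measured on both arrays, with the median of all genes dotted. Skeletal muscle, luminal and seminal vesicle markers are not drawn. Adipocyte markers lie at 2.54 between TRAMP oil and C57BL/6 oil and at -2.61 between TRAMP TmT and TRAMP oil, opposite to the collagen chains.

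Genotype and treatment were also fitted together over the 4 arrays with limma, which leaves 1 residual degree of freedom and takes the interaction as error. None of 78 members passed an adjusted p of 0.05 for genotype, where 27 of 19925 genes did, or for treatment, where 0 did. At an unadjusted p under 0.05 there were 7 members for genotype (8.97%, against 15.1% of all genes) and 2 for treatment (2.56%, against 6.26%). The lowest for genotype were Col10a1 at 1.98 ± 0.33 (SE; limma adjusted p = 0.092), Col4a6 at -2.24 ± 0.45 (limma adjusted p = 0.129) and Itgbl1 at -1.32 ± 0.32 (limma adjusted p = 0.175). With the normexp correction Col4a6 (limma adjusted p = 9.81e-12) and Itgbl1 (limma adjusted p = 0.00229) passed for genotype, as did 1385 genes in all. Their fitted sizes there, -1.94 and -1.02, were smaller than without the correction. With 1 residual degree of freedom, limma's error borrows from all genes, and these p-values do not measure spread between mice. In the fit without the normexp correction, Lamb3 (-1.31 ± 0.42), Col8a1, Col4a4 (1.21 ± 0.46) and Lama2 (-0.85 ± 0.34) made up the rest of the 7. For treatment the lowest were Col13a1 at 2.16 ± 0.70 and Col4a6 at 1.18 ± 0.45, then Itga11 at 1.43 ± 0.59, Col22a1 at -0.77 ± 0.32 and Col28a1 at 2.00 ± 0.85 (limma adjusted p = 0.778 in each). Col10a1, Col13a1, Itga11, Col22a1 and Col28a1 were each not well above background on at least 1 array, so their fitted sizes rest on signals near background.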

How the data were processed

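RNA of mouse prostate was labelled with Cy3 and hybridised to Agilent 1-colour arrays, 4 on 1 slide with 1 scan, so slide and scan do not differ between groups. The deposited values are linear intensity per spot, background-subtracted and detrended by Agilent Feature Extraction 10.2.1.3, per the file headers; the deposited value table holds the same intensity for all 45018 features. Control spots and outlier spots (131 to 348 per array) were left out, 0 spots were saturated, and each intensity was put on the log2 scale minus log2 of the array's 75th percentile. Spots of 1 probe were averaged, and a gene took its brightest probe. A gene called different was at least 2-fold apart and well above background on both arrays. A bound divides the bright array's value by that of the dim array, or by the dim array's lowest detected value where this is higher. The additive fit used limma 3.58.1 in R 4.3.3 (lmFit, eBayes, Benjamini-Hochberg, threshold 0.05) on genes detected (well above background) on 2 or more arrays. It was run on simulated data whose added line differences were the same after both gavages. That run does not cover genes whose line difference changed with the gavage. Symbols of 75 of the 82 genes were matched to RefSeq, and 3 differed: Lamb1-1 is Lamb1, Itgb1bp3 is Nmrk2 and Col4a3bp is Cert1. Genes named in the text were the 10 highest and lowest past 2-fold per comparison, bounds of at least 4-fold, the lowest p-values of the fit and a set list of chains; Col28a1, Col11a2, Col4a5 and other examples outside it were added after their values were seen. Members, lists and tests were chosen with earlier results of these data known. The number of arrays limits the precision. The results were recomputed under 7 other ways of processing, and under 1 more chosen after seeing the data. Some items are not reported here.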

Additional observations from a re-analysis of the deposited data

Results flagged for a closer look

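Itgb6, the epithelial beta chain that binds the latent form of TGF-beta, differed between the lines in opposite directions after the 2 gavages: TRAMP minus C57BL/6 was 1.22 after TmT and -0.63 after oil, on 1 array per group. It was picked out because 1 of the differences was at least 2-fold and the other lay on the opposite side of 0 by at least 0.5; the difference between them was not tested. The gene's 2 other probes gave 0.31 and -0.98 after TmT and -0.11 and -0.18 after oil. The probe at -0.98 was not well above background on TRAMP TmT.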

How the results depend on the processing

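Of the single called differences under the alternatives, 198 kept their direction and size class, 69 fell under 2-fold in the same direction and 13 turned sign. Part of the 198 was fixed in advance. The deposited value table holds the same intensities, and leaving out the background filter does not alter a gene already measured on both arrays. For a gene with 1 probe the mean over probes is also unchanged. The planned normexp correction failed on the 2 TmT arrays: the lowest mean minus local background there was -659000 on TRAMP TmT and -137000 on C57BL/6 TmT (-7.20 on TRAMP oil and -6.11 on C57BL/6 oil), and the 99th percentile of the corrected log2 values was 0.20 on TRAMP TmT and 2.75 on C57BL/6 TmT, against 4.89 on TRAMP oil and 5.16 on C57BL/6 oil. With it, 1 member was at least 2-fold lower between the lines after oil (median -0.13) and, after TmT, 0 higher and 4 lower (median 0.0077). In C57BL/6, 15 were higher and 12 lower with TmT (median 0.28; 32.2% and 24.8% of all genes), in TRAMP 13 were lower (27.1% of all genes), and limma called 50 of 78 for treatment, as it did 14860 of 19919 genes. It turned the laminin-binding integrin alpha median after TmT to -0.0443. Between the lines after TmT it turned Col6a2 to -0.0176, Itga3 to -0.0445 and Lamc1 to -0.15. With TmT in C57BL/6 it turned Col5a2 to 0.90, Itga7 to 0.76 and Itgb1bp3 to 0.19. With TmT in TRAMP it turned Col1a1 to -1.92, Col5a1 to -0.73, Col7a1 to -1.62, Itgb3 to -3.54 and Lamc1 to -1.71. A normexp fit without spots marked for an outlying background (366 to 643 per array) was added after seeing the data. It turned no called difference. Its offset of 50 is large beside the arrays' 75th percentiles and shrinks differences of dim genes. It left 1 member at least 2-fold lower between the lines after oil (median -0.13), 0 higher after TmT, 0 lower with TmT in C57BL/6 and 2 higher with TmT in TRAMP (Col4a6 and Col1a1, against 2.87% of all genes higher), while limma called 2 members for genotype (Col4a6, adjusted p = 9.81e-12, and Itgbl1, adjusted p = 0.00229) and 1 for treatment (Col4a6, adjusted p = 0.0444). Those adjusted p-values rest on 1 residual degree of freedom and do not measure spread between mice. Quantile normalization, median centring, no detrending and no background filter each put 1 member at least 2-fold lower with TmT in TRAMP. Median centring and no detrending put 1 higher with TmT in C57BL/6. Between the lines after oil, no filter gave 2 higher and 13 lower, and the mean over probes 2 higher. The mean over probes turned Itgb8 between the lines after TmT to -0.18 and Col16a1 with TmT in TRAMP to -0.0929. Where a cause is not named, it was not tested. No paired analysis was possible because each group had 1 array and no replicate numbers. Dim genes were limited most on TRAMP TmT, where 63.9% of spots were well above background.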

Other observations

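Detection was lost unevenly among the members' probes. Of 170, 6 (3.53%) were not well above background on the TRAMP oil array alone, against 1.38% of all 41174 probes. On the TRAMP TmT array alone it was also 6 (3.53%), against 4.07% of all, and on the C57BL/6 TmT array alone 2 (1.18%), against 1.62%. On the C57BL/6 oil array alone it was 0, against 0.155%.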
